A study of Mus musculus with 10 samples.

Results

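The G-CSF and CXCR2 axis of neutrophil recruitment was examined in treated mouse ear skin through 10 genes, out of 41388 genes counted in each library. The genes are the cytokine gene Csf3, the chemokine genes Cxcl1, Cxcl2, Cxcl3 and Cxcl5, the receptor genes Csf3r and Cxcr2, and the neutrophil transcripts Ly6g, Retnlg and Clec4e. They were taken by symbol, but selected on the group contrast and on the relations across these same libraries, which were in view when they were chosen. The fold changes, p-values and correlations given for them therefore describe these genes and are not independent evidence of a direction. All 10 symbols were found in the files. Of them, 9 had enough counts to be tested and Ly6g did not.

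The 10 libraries were made from the whole ear of C57Bl/6 mice, 6 called Experimental and 4 called Littermate. The Experimental mice carry NaV1.8+ with a floxed gene, which the series text gives as Il4raF/F and the genotype label of each sample as Jak1F/F. Which of the genes was targeted is not settled here. The Littermate mice are labelled WT. Per the series text the skin was treated with MC903 (calipotriol, a vitamin D analogue that causes an itching inflammation of the skin) at 1 nM daily for 12 days, and no library of untreated skin was used here. NaV1.8 is a sodium channel of nociceptive sensory neurons, whose cell bodies lie outside the ear, so a deletion in those neurons need not be seen in skin RNA. The sources used here give no age, litter or batch. P-values of the group comparison weigh the difference against the spread between these libraries. The comparison asks how the inflamed skin of the conditional mice differed from that of littermates.

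Total counts ran from 11520348 to 41935183 in Experimental libraries, against 12865459 to 14324433 in Littermate libraries. In whole skin Il4ra ran from 130.2 to 270.1 normalized CPM (counts per 1e6 reads, scaled by TMM factors) in Experimental libraries and from 183.7 to 235.8 in Littermate libraries, so the groups overlapped. Jak1 ran from 272.5 to 324.0 normalized CPM in Experimental libraries and from 279.5 to 335.4 in Littermate libraries, which also overlapped. Experimental 6 stood apart from the other Experimental libraries in several of the axis genes, and Littermate 2 had the highest S100a8 of all libraries, 219.7 normalized CPM. Values without these libraries are given where they matter.

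G-CSF, the product of Csf3, drives the production of neutrophils in bone marrow and their release into blood by binding the receptor encoded by Csf3r. CXCL1, CXCL2, CXCL3 and CXCL5 are ELR-positive CXC chemokines that draw neutrophils into tissue through CXCR2. Keratinocytes, fibroblasts, endothelial cells and macrophages can make these ligands in inflamed skin, while Csf3r is a gene of the neutrophil and monocyte lineages. In mouse skin Cxcr2 has also been described outside neutrophils, in keratinocytes and in sensory neurons.

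The label was first set against the data. Ly6g, the surface protein that defines mouse neutrophils, was counted 7 times over the 6 Experimental libraries and 2 times over the 4 Littermate libraries. Of the 7 reads in Experimental libraries, 5 came from Experimental 6. A neutrophil marker list of 14 genes, which holds Ly6g, Retnlg, Csf3r and Cxcr2 themselves, summed to 316.5, 418.1 and 679.1 normalized CPM in Experimental libraries (lowest, median and highest), against 419.1, 478.5 and 721.3 in Littermate libraries. The groups overlapped. S100a9, S100a8 and Il1r2 weighed most in these sums. Their means were 158.3, 90.6 and 93.3 normalized CPM in Experimental libraries and 192.7, 116.4 and 85.6 in Littermate libraries. Of the 12 tested markers of the list 10 were lower in Experimental libraries and none passed the edgeR test, at either an adjusted or an unadjusted p of 0.05. Ly6g and Mrgpra2b were below 10 counts in all libraries together, whereas the other 12 were counted well enough to be tested, among them Mmp9 at 30.1 ± 23.4 normalized CPM in Experimental libraries (SD, n = 6) and 43.0 ± 21.99 in Littermate libraries (SD, n = 4). Other cells of skin can also express several of those 12. The genes are therefore described as transcripts of the axis and not as a measure of neutrophil number.

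On the RPKM scale (reads per kilobase and library total, which allows levels of different genes to be compared), Cxcl2 stood first in both groups at 18.6 ± 18.3 RPKM in Experimental libraries (SD, n = 6) and 32.7 ± 9.83 RPKM in Littermate libraries (SD, n = 4). In Littermate libraries Cxcr2 followed at 13.2 ± 2.95 RPKM, then Cxcl5 at 10.6 ± 2.47, Csf3r at 7.49 ± 1.44, Cxcl1 at 7.05 ± 2.57, Cxcl3 at 5.21 ± 1.62, Csf3 at 3.40 ± 1.11, Retnlg at 2.26 ± 0.51 and Clec4e at 1.56 ± 0.27 RPKM (SD, n = 4 each). Ly6g was last. In that order, the ranges of mean ± SD of neighbours overlapped except for Cxcl2 above Cxcr2 and Clec4e above Ly6g. In Experimental libraries Csf3 stood lower in the order, at 0.946 ± 0.583 RPKM (SD, n = 6), below Retnlg at 1.80 ± 0.97 and Clec4e at 1.64 ± 1.15 RPKM.

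Csf3 (ENSMUSG00000038067, mm10 chromosome 11, 98701263 to 98703629) differed most between the groups. Its level was 0.572, 1.05 and 2.62 normalized CPM in Experimental libraries (lowest, median and highest), against 5.79, 3.96, 3.13 and 6.55 normalized CPM in Littermate replicates 1 to 4. All 6 Experimental libraries lay below all 4 Littermate libraries. These levels rested on 7 to 75 reads per Experimental library and 44 to 84 reads per Littermate library, above the 3 counts taken as a floor. The means were 1.33 ± 0.82 normalized CPM (SD, n = 6) in Experimental libraries and 4.86 ± 1.58 (SD, n = 4) in Littermate libraries, a log2 fold change of -1.82, 95% interval -2.62 to -1.02. The edgeR quasi-likelihood test gave an unadjusted p of 0.000325 and, after Benjamini-Hochberg adjustment over the 16830 genes tested, an adjusted p of 0.0860. Csf3 thus did not pass the threshold of 0.05 on all 10 libraries. In bulk skin, fewer cells of a type and less RNA per cell cannot be told apart.

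The call on Csf3 depended on the fit. It passed in 5 of 21 other fits: DESeq2 (adjusted p = 0.000821), limma voom with sample weights (adjusted p = 0.0473), and edgeR without Littermate 2 (adjusted p = 0.0468), without Experimental 6 (adjusted p = 0.0340) and without both (adjusted p = 0.0158). Its log2 fold change lay between -2.14 and -1.46 in all 21. Over the 21 fits its adjusted p ran from 0.000821 to 0.808. The highest p, at a log2 fold change of -1.46, came from the fit with the level of Y-linked genes, a mark of sex, as a covariate. In that edgeR fit the adjusted p of every tested axis gene was 0.808 or more. Whether the sexes were spread alike over the groups was not tested. Genes that passed as lower in Experimental libraries made up 1.26% of those tested with DESeq2, 0.333% with limma voom with sample weights, 1.8% without Littermate 2, 0.12% without Experimental 6 and 2.73% without both.

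Of the 9 tested genes 0 passed the edgeR threshold, where 0.0178% of all tested genes did, and 2 (Csf3 and Cxcl3) had an unadjusted p under 0.05, where 11.8% of all tested genes did. DESeq2 and limma voom with sample weights each called 1 of them, Csf3, and limma voom without weights called 0. The log2 fold change was below 0 for 8 of the 9, against 50.4% of all tested genes. Csf3 was the 1 gene of the axis whose groups did not overlap, against 1.35% of all tested genes with every Experimental library below every Littermate library. The median log2 fold change of the 9 was -0.46, beside a median of -0.001 over all tested genes. Nothing is read from these counts, since the genes were chosen with the contrast known.

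**Figure D1:**
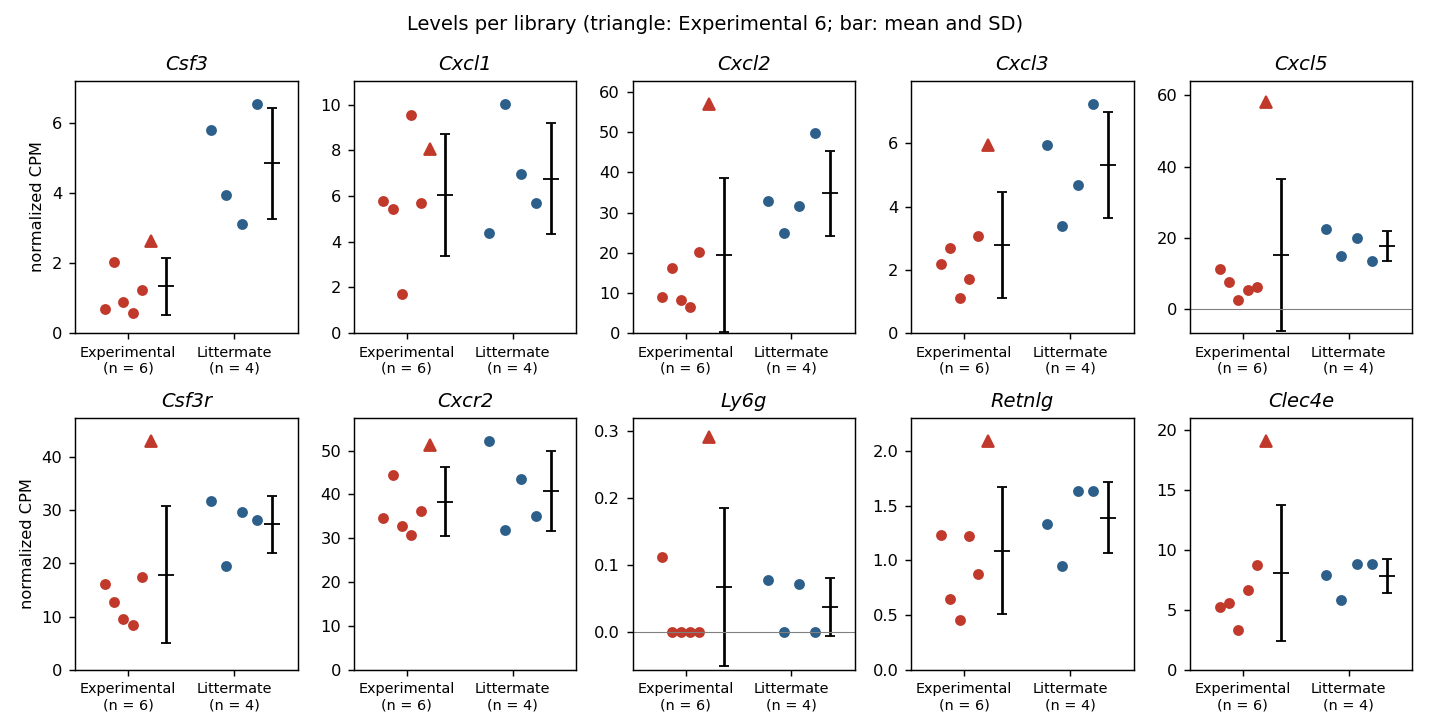
Normalized CPM of the 10 axis genes in each library, Experimental (red, n = 6) left of Littermate (blue, n = 4), with the mean and SD beside the points and a triangle for Experimental 6. Csf3 shows no overlap between the groups (0.572 to 2.62 against 3.13 to 6.55). Experimental 6 is the highest Experimental library in every gene but Cxcl1, Csf3 included, and stands far above the others in Cxcl2, Cxcl5, Csf3r and Clec4e.

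The genes of the CXCR2 ligands lie in a cluster on chromosome 5, and they differed in how far their groups overlapped. Cxcl1 (ENSMUSG00000029380, 90891241 to 90893115) had 1.72, 5.73 and 9.56 normalized CPM in Experimental libraries (lowest, median and highest), against 4.38, 10.04, 6.97 and 5.69 in Littermate replicates 1 to 4. The groups overlapped over most of their range. The log2 fold change of -0.22 had a 95% interval of -1.12 to 0.69 (edgeR, adjusted p = 0.879), and it turned to 0.03 without Littermate 2 and to 0.02 without Experimental 3.

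Cxcl2 (ENSMUSG00000058427, 90903899 to 90905909) encodes the ligand also called MIP-2. It had 6.37, 12.5 and 57.1 normalized CPM in Experimental libraries (lowest, median and highest), against 32.9, 24.99, 31.6 and 49.9 in Littermate replicates 1 to 4. The highest of all 10 libraries was Experimental 6, while the other 5 Experimental libraries, at 20.3 or less, lay below all Littermate libraries. For Cxcl2 the log2 fold change of -0.84 had a 95% interval of -2.20 to 0.51 (edgeR, adjusted p = 0.625). Without Experimental 6 it was -1.55 (edgeR, adjusted p = 0.105).

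Cxcl3 (ENSMUSG00000029379, 90786103 to 90788086) had 1.12, 2.44 and 5.93 normalized CPM in Experimental libraries (lowest, median and highest), against 5.95, 3.37, 4.69 and 7.25 in Littermate replicates 1 to 4. Experimental 6 lay among the Littermate libraries and the other 5 Experimental libraries lay below them. The log2 fold change of Cxcl3 was -0.97, its 95% interval -1.84 to -0.09 (edgeR, unadjusted p = 0.0342, adjusted p = 0.377). It passed in 1 of 21 other fits, the edgeR fit without Littermate 2 and Experimental 6 (log2 fold change -1.50, adjusted p = 0.0160, range over the 21 fits 0.0160 to 0.953).

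Cxcl5 (ENSMUSG00000029371, 90759299 to 90761625), a ligand often made by epithelial cells, had 2.41, 6.90 and 58.2 normalized CPM in Experimental libraries (lowest, median and highest), against 22.4, 14.9, 19.98 and 13.6 in Littermate replicates 1 to 4. Experimental 6 lay above every other library, and the other 5 Experimental libraries, at 11.3 or less, lay below all Littermate libraries. Its log2 fold change of -0.24 had the widest interval of the axis genes, from -2.11 to 1.63 (edgeR, adjusted p = 0.940). Without Experimental 6 it was -1.45 (edgeR, adjusted p = 0.137), and without Experimental 3 it was 0.02.

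The promoters of Cxcl1, Cxcl2 and Cxcl3 are shown because these neighbouring genes encode like proteins, while the levels of Cxcl2 and Cxcl3 moved together across libraries and that of Cxcl1 did not. The last 150 bases before each start are printed 5′ to 3′ from RefSeq (GRCm38.p6, the assembly of mm10), all on the plus strand, at chr5:90891095-90891244 for Cxcl1, chr5:90903749-90903898 for Cxcl2 and chr5:90785951-90786100 for Cxcl3. Capitals mark the longest run of bases that all 3 windows share.
Cxcl1: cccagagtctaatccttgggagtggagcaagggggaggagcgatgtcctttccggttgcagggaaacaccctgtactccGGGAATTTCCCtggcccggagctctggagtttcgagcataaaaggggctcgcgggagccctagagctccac
Cxcl2: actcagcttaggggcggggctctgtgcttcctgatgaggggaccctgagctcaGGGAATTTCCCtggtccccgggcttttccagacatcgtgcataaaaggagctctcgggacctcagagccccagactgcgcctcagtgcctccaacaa
Cxcl3: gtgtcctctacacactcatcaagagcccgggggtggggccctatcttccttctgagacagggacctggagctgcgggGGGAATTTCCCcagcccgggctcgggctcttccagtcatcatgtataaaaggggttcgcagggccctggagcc

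The shared run, GGGAATTTCCC, is 11 bases long and has the form of a site bound by NF-kB, the transcription factor of inflammatory signalling. It began 71 bases before the start in Cxcl1, 97 in Cxcl2 and 73 in Cxcl3. The next longest run shared by all 3, ATAAAAGG, was 8 bases long. Both strands were searched, over windows from 250 bases before to 50 after the start, and 14 of 32851 RefSeq promoters (0.0426%) held the 11 bases. The run was picked from these 3 promoters, so that share is no test. Of the 8 axis genes with a promoter in the table, Csf3r, Cxcr2, Ly6g, Retnlg and Clec4e did not hold it, and Csf3 and Cxcl5 had no entry. A match describes the letters and says nothing of binding in this skin.

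Messages of inflammatory cytokines are often short-lived through AU-rich elements in the 3′ UTR, which proteins such as tristetraprolin (Zfp36) bind. The pentamer ATTTA occurred 6 times in the 3′ UTR of Csf3, 7 in Cxcl1, 11 in Cxcl2, 5 in Cxcl3 and 5 in Cxcl5. Among the receptors and neutrophil transcripts it occurred 5 times in Clec4e, 2 in Cxcr2, and 0 in Csf3r, Ly6g and Retnlg. The longer form TTATTTATT occurred 2 times in Cxcl1, 4 in Cxcl2 and 1 in Cxcl3, and in no other axis gene. In GENCODE M21, 7.66% of genes with a 3′ UTR held the longer form and 65.2% held the pentamer, at a median length of 961 bases. The 5 ligands thus shared the pentamer whether or not their groups overlapped.

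Csf3r (ENSMUSG00000028859, chromosome 4, 126024550 to 126044440) encodes the G-CSF receptor. It had 8.41, 14.4 and 43.1 normalized CPM in Experimental libraries (lowest, median and highest), against 31.8, 19.6, 29.6 and 28.2 in Littermate replicates 1 to 4. The other 5 Experimental libraries lay at 17.4 or less, below all Littermate libraries, while Experimental 6 lay above them all. For Csf3r the log2 fold change was -0.62, its 95% interval -1.62 to 0.38 (edgeR, adjusted p = 0.626). Without Experimental 6 it was -1.10 (edgeR, adjusted p = 0.0690), and without Littermate 2 as well it was -1.22 and passed (edgeR, adjusted p = 0.0165, range over 21 fits 0.0165 to 0.968), 1 of 2 fits in which it did.

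Cxcr2 (ENSMUSG00000026180, chromosome 1, 74153989 to 74161246), the receptor of all 4 chemokines, had 30.7, 35.4 and 51.3 normalized CPM in Experimental libraries (lowest, median and highest), against 52.3, 31.95, 43.4 and 35.1 in Littermate replicates 1 to 4. The groups overlapped over nearly their whole range. The difference of -0.08 on the log2 scale had a 95% interval of -0.44 to 0.27 (edgeR, adjusted p = 0.887), the narrowest interval of the axis genes. It was 0.07 without Littermate 1. The receptor for G-CSF and the receptor for the chemokines therefore had unlike spreads: the highest Experimental library of Csf3r stood outside the Littermate range and that of Cxcr2 inside it.

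Of the neutrophil transcripts, Retnlg (ENSMUSG00000022651, chromosome 16, 48872608 to 48874498) encodes a resistin-like protein of mouse granulocytes. It had 0.454, 1.05 and 2.09 normalized CPM in Experimental libraries (lowest, median and highest), against 1.33, 0.953, 1.64 and 1.64 in Littermate replicates 1 to 4. The groups overlapped, at a log2 fold change of -0.46, 95% interval -1.29 to 0.36 (edgeR, adjusted p = 0.680). That value was -0.78 without Experimental 6 (95% interval -1.47 to -0.097, edgeR adjusted p = 0.300), -0.30 without Experimental 2 and -0.22 without Experimental 3. Clec4e (ENSMUSG00000030142, chromosome 6, 123281789 to 123289870) encodes Mincle, a lectin receptor of neutrophils and of macrophages. It had 3.27, 6.10 and 19.1 normalized CPM in Experimental libraries (lowest, median and highest), against 7.90, 5.79, 8.82 and 8.80 in Littermate replicates 1 to 4. Clec4e had a log2 fold change of 0.01, 95% interval -1.003 to 1.03 (edgeR, adjusted p = 0.995), and it was -0.46 without Experimental 6. Ly6g (ENSMUSG00000022582, chromosome 15, 75155240 to 75159126) had no test and no fold change, since both groups were at or under the floor in nearly all libraries.

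Experimental 6 was the highest of the 10 libraries in Cxcl2, Cxcl5, Csf3r, Ly6g, Retnlg and Clec4e, and ranked 5 of 10 in Csf3. Among the Experimental libraries it was the highest in every axis gene but Cxcl1, Csf3 included. Without it, the 5 remaining Experimental libraries lay below all Littermate libraries in 5 of the 10 genes (Csf3, Cxcl2, Cxcl3, Cxcl5 and Csf3r), against 2.71% of all tested genes. Cxcl1, Cxcr2, Ly6g, Retnlg and Clec4e still overlapped. Of the 9 tested genes 1 passed as lower in edgeR without it (Csf3, log2 fold change -2.06), where 0.12% of all tested genes did. Without Littermate 2 as well 3 passed (Csf3, Cxcl3 and Csf3r), where 2.73% did. Littermate 2 was the lowest Littermate library in Cxcl2, Cxcl3, Csf3r, Cxcr2, Retnlg and Clec4e. Leaving out the highest Experimental or the lowest Littermate library of a gene widens its difference by construction, so nothing is read from these counts. The fit without Experimental 6 belonged to the planned fits that leave out each library in turn, but was singled out after the levels were seen. The removal of both libraries was chosen after the levels were seen.

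**Figure D2:**
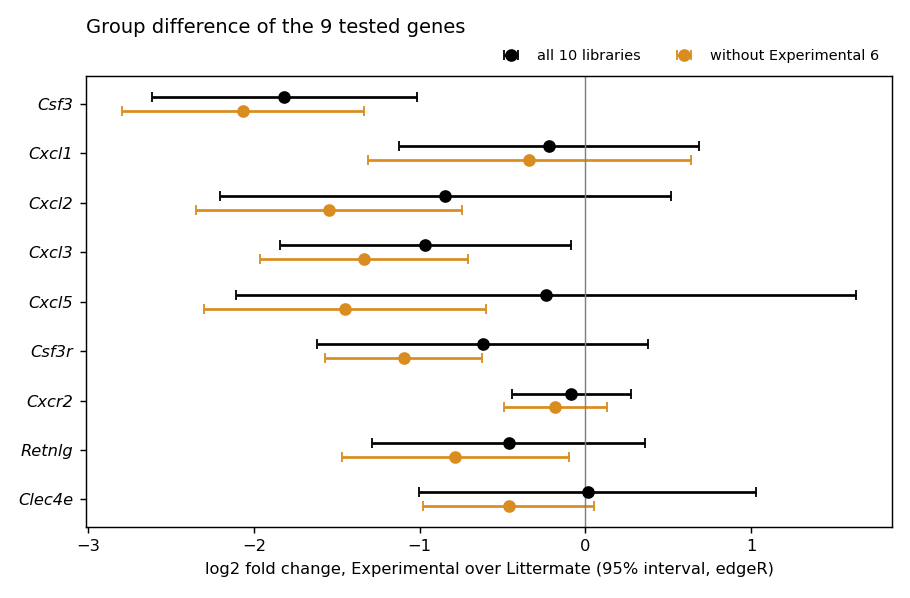
Log2 fold change, Experimental over Littermate, of the 9 tested axis genes with 95% intervals from edgeR, on all 10 libraries (black) and without Experimental 6 (orange). Csf3 lies at -1.82 and -2.06, and the intervals of Cxcl2, Cxcl5, Csf3r and Retnlg narrow and shift below 0 when Experimental 6 is left out.

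The markers of other cell types were read beside these values. Macrophage markers (8 of 8 tested, 7 of them lower) summed to 1548, 1801 and 2419 normalized CPM in Experimental libraries (lowest, median and highest), against 1929, 2133 and 2283 in Littermate libraries, and the 2419 belonged to Experimental 6. Monocyte markers (5 of 5 tested, 0 lower) summed to 328.9, 378.9 and 403.9 in Experimental libraries, against 337.9, 347.3 and 366.1 in Littermate libraries, with 388.5 in Experimental 6. Keratinocyte markers (2 of 4 lower) ran from 24017 to 31736 in Experimental libraries and from 26559 to 30938 in Littermate libraries. Thus the library with the highest Csf3r and Clec4e, Experimental 6, also had the highest macrophage sum. Its neutrophil marker sum of 679.1 was the highest of the Experimental libraries too, where the highest Littermate sum was 721.3, in Littermate 2. S100a8 and S100a9 made up 219.7 and 300.8 of the sum in Littermate 2, against 130.4 and 263.2 in Experimental 6. Littermate 2 was the lowest Littermate library in Csf3r, Cxcr2, Retnlg and Trem1. The sums therefore do not rank these libraries by neutrophil transcripts. The keratinocyte sum of Experimental 6, 29314, lay within the range of the others.

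Erythroid markers were lower in 5 of 5, at a median log2 fold change of -0.61, and summed to 56.3 to 184.1 normalized CPM in Experimental libraries, against 103.8 to 308.3 in Littermate libraries. Mast cell markers were lower in 4 of 4 (291.5 to 370.0 in Experimental libraries, against 331.1 to 400.1 in Littermate libraries), and endothelial markers in 4 of 4 (222.4 to 291.4, against 249.9 to 360.8). In both lists Experimental 6 had the highest sum of its group. Skeletal muscle markers were lower in 3 of 4 (2125 to 3098 in Experimental libraries, against 1938 to 4353 in Littermate libraries), cartilage markers in 3 of 3 tested, with Matn1 below 10 counts (145.5 to 301.2, against 191.9 to 295.6), and fibroblast markers in 3 of 5 (4211 to 5288, against 4536 to 7268). T cell markers were lower in 0 of 4 (11.8 to 15.8 in Experimental libraries, against 10.5 to 13.4 in Littermate libraries) and eosinophil markers in 0 of 2 tested (3.84 to 5.71, against 2.73 to 5.55). The groups overlapped in each of these lists. The part of these markers in the results was not tested.

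The relation of attractants to receptor and neutrophil transcripts was taken across libraries after subtracting each group's mean on the log2(normalized CPM + 0.5) scale, so that the group difference does not enter. Over the 25 pairs of 5 attractants with 5 transcripts, Pearson's r was above 0 in 24 and its median was 0.66. After Benjamini-Hochberg adjustment over the 25, 6 passed an adjusted p of 0.05 (exact two-sided permutation within groups, 17280 arrangements, n = 10). The genes were chosen with relations across these libraries in view, which centring does not undo. These p-values, and those of the relations below, therefore describe the genes and are not independent evidence of a link. The share of other gene pairs that would pass was not computed.

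Csf3r took part in 3 of the 6. With Cxcl3 it gave r = 0.89 and rho = 0.77 (exact permutation p = 0.004 for r and 0.022 for rho, adjusted p = 0.031). With Cxcl2 it gave r = 0.90 and rho = 0.71 (exact permutation p = 0.008 for r and 0.049 for rho, adjusted p = 0.047). With Cxcl5 it gave r = 0.90 and rho = 0.76 (exact permutation p = 0.011 for r and 0.024 for rho, adjusted p = 0.047). Leaving out the 2 libraries farthest from the median of the attractant, Experimental 6 among them in each case, took r to 0.72 for Cxcl3, 0.53 for Cxcl2 and 0.58 for Cxcl5.

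The other 3 pairs were with neutrophil transcripts and Cxcr2. Cxcl3 with Clec4e gave r = 0.90 and rho = 0.85 (exact permutation p = 0.003 for r and 0.006 for rho, adjusted p = 0.031), and r = 0.60 without the 2 farthest libraries. Cxcl5 with Cxcr2 gave r = 0.70 and rho = 0.75 (exact permutation p = 0.010 for r and 0.017 for rho, adjusted p = 0.047), and r = 0.58 without the 2 farthest. Cxcl5 with Ly6g gave r = 0.93 (exact permutation adjusted p = 0.031), but Ly6g rests on 9 reads in all, 5 of them in Experimental 6, so nothing is read from it.

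No pair with Csf3 or Cxcl1 was among the 6. Csf3 with its receptor gene Csf3r gave r = 0.65 and rho = 0.50 (exact permutation p = 0.069 for r and 0.196 for rho, adjusted p = 0.123), and r = 0.32 without Experimental 6. Whether that r differs from those of the chemokines was not tested. Cxcl1 with Csf3r gave r = 0.19 (exact permutation p = 0.631, adjusted p = 0.657) and Cxcl1 with Cxcr2 gave r = -0.04.

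The count of 6 pairs rested on single libraries. It became 0 without Experimental 6, without Experimental 3, without Experimental 5, without Littermate 1 or without Littermate 2, and 10 without Littermate 4. It was 0 with Spearman's rho in place of r, and 0 within the 6 Experimental libraries taken alone, where 720 arrangements allow a smallest p of 0.0014. There the correlations themselves were 0.93 for Cxcl2 with Csf3r, 0.92 for Cxcl3 with Csf3r, 0.92 for Cxcl5 with Csf3r, 0.94 for Cxcl3 with Clec4e and 0.80 for Cxcl5 with Cxcr2, with adjusted exact permutation p-values of 0.079 to 0.095. Csf3 with Cxcr2 gave r = 0.97 in those libraries (adjusted exact permutation p = 0.079). Without Experimental 6, r was 0.68 for Cxcl2 with Csf3r, 0.76 for Cxcl3 with Csf3r, 0.78 for Cxcl3 with Clec4e, 0.62 for Cxcl5 with Csf3r and 0.49 for Cxcl5 with Cxcr2.

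**Figure D3:**
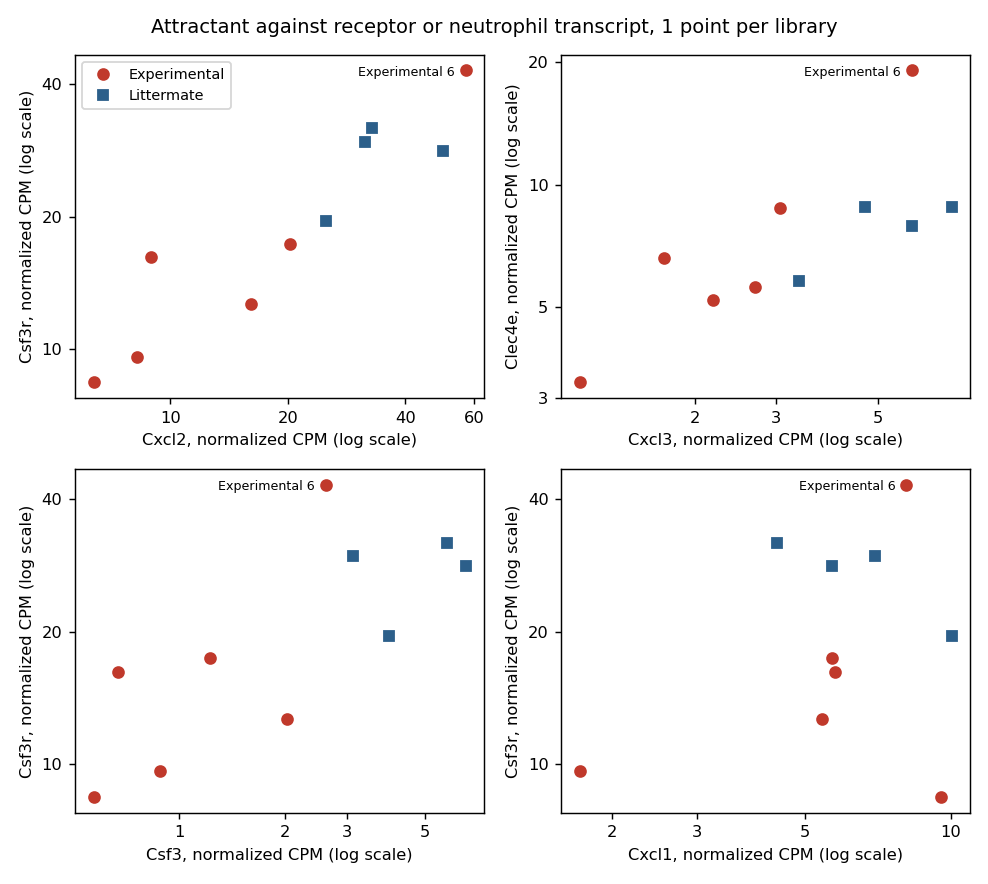
Normalized CPM per library on log axes, with an attractant on the x axis and a receptor or neutrophil transcript on the y axis, for Experimental (red circles, n = 6) and Littermate (blue squares, n = 4) libraries. After group means are subtracted, which the points do not show, r is 0.90 for Cxcl2 with Csf3r, 0.90 for Cxcl3 with Clec4e and 0.19 for Cxcl1 with Csf3r. Without that subtraction r is 0.93, 0.76 and 0.26 over these libraries. Experimental 6 is the highest library in Cxcl2, Csf3r and Clec4e and ranks 3 from the top in Cxcl3.

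**Figure D4:**
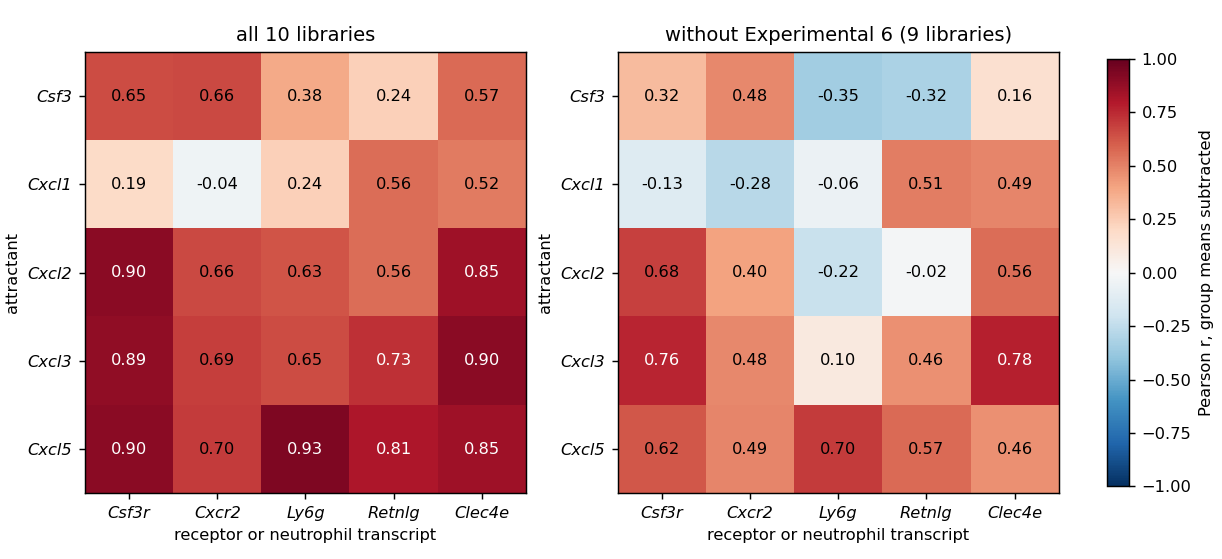
Pearson's r within groups for the 25 pairs of attractants (rows) and receptor or neutrophil transcripts (columns), over all 10 libraries on the left and the 9 libraries without Experimental 6 on the right. The values for Csf3r with Cxcl2, Cxcl3 and Cxcl5 are 0.90, 0.89 and 0.90 on the left and 0.68, 0.76 and 0.62 on the right.

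Among the attractants themselves, with 20 relations computed within the ligand and the transcript sets, Cxcl2 and Cxcl3 gave the highest r of 0.92 and rho of 0.93 (exact permutation p = 0.00058 for r and 0.00041 for rho, adjusted p = 0.012). It was 0.82 without Experimental 6 and 0.87 without the 2 farthest libraries. Cxcl2 and Cxcl3 share sequence: 5.84% of the 50-base windows of Cxcl2 transcripts also occur in another gene, Cxcl3, so the reads of these genes can be uncertain one against the other. Shared windows made up 10.5% in Csf3r, with Tmed5 and Cntn2 among the other genes, and 4.01% in Cxcr2. Csf3 followed Cxcl2 (r = 0.85, rho = 0.88, exact permutation p = 0.003 for r and 0.006 for rho, adjusted p = 0.033) and Cxcl3 (r = 0.79, rho = 0.73, exact permutation p = 0.014 for r and 0.033 for rho, adjusted p = 0.046), although no 50-base window of Csf3 occurs in another gene. For Cxcl2 and Cxcl3 in turn, r with Csf3 was 0.77 and 0.63 without Experimental 6, and 0.74 and 0.61 without the 2 farthest libraries. Csf3 with Cxcl5 gave r = 0.55 (exact permutation adjusted p = 0.233), and 0.03 without Experimental 6. Cxcl1, which lies on the same chromosome and shares the promoter run printed above, gave r = 0.19 with Cxcl2, 0.32 with Cxcl3 and -0.02 with Csf3, with adjusted exact permutation p-values of 0.707, 0.482 and 0.968.

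Among the transcripts, Csf3r with Cxcr2 gave r = 0.74 and rho = 0.83 (exact permutation p = 0.009 for r and 0.006 for rho, adjusted p = 0.046), Csf3r with Clec4e gave r = 0.86 and rho = 0.75 (exact permutation p = 0.016 for r and 0.029 for rho, adjusted p = 0.047) and Retnlg with Clec4e gave r = 0.85 and rho = 0.52 (exact permutation p = 0.013 for r and 0.213 for rho, adjusted p = 0.046). Without Experimental 6 these were 0.57, 0.55 and 0.67. Without the 2 farthest libraries they were 0.49, 0.86 and 0.37.

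The genes with the pattern most like Csf3 were sought over the 10 libraries among 14292 genes that averaged 1 CPM or more, as a description with no test and with the group difference included. They were Rpusd1 (r = 0.949), Peg3 (r = 0.943), Castor2 (r = 0.933), Dnmt3a (r = 0.924) and Pheta2 (r = 0.918). The genes most like Csf3r were Tnfrsf1b, a TNF receptor (r = 0.965), Ifitm1 (r = 0.963), Spp1, which encodes osteopontin (r = 0.956), Ccr1, a chemokine receptor of myeloid cells (r = 0.955), and Hdc, which encodes the enzyme that makes histamine (r = 0.952). No gene was in both lists.

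Around the axis, 80 further pathway genes were listed and found in the files, and 70 were tested. A further 3 listed symbols (Il36a, Il36b and Il36g) matched no row, and the same genes were taken under the older symbols Il1f6, Il1f8 and Il1f9. None passed the edgeR threshold of an adjusted p of 0.05, and none passed in DESeq2, limma voom or limma voom with sample weights. At an unadjusted p under 0.05, 13 were lower and 2 higher in Experimental libraries, where 8.1% of all tested genes were lower and 3.65% higher. Over the 70, 54 had a log2 fold change below 0 and the median was -0.12, beside -0.001 over all tested genes.

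The colony stimulating factors and their receptors had 6 of 10 members tested, all 6 below 0, with a median log2 fold change of -0.29. Csf1, the growth factor of macrophages, had -0.24 (edgeR, adjusted p = 0.306). Csf2rb, the shared beta chain of the receptors for GM-CSF, IL-3 and IL-5, had -0.35 (edgeR, adjusted p = 0.374), its mouse copy Csf2rb2 had -0.36 (adjusted p = 0.355), and Il3ra had -0.35 (adjusted p = 0.349). Csf2rb and Csf2rb2 are near-identical copies that can share reads, so their values are uncertain one against the other.

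Other CXC ligands, receptors and decoys had 6 of 8 members tested, 5 below 0 and 1 above, at a median of -0.16. Cxcr4, the receptor that holds neutrophils in bone marrow, had -0.33 (edgeR, adjusted p = 0.540), its ligand Cxcl12 had -0.21 (adjusted p = 0.721), Ackr2, a decoy receptor of inflammatory CC chemokines, had -0.10 (adjusted p = 0.784) and Pf4 had 0.15 (adjusted p = 0.701). Cxcr1 was too low to test, at 81 reads in all.

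Cytokines and receptors that induce Csf3 and the CXC chemokines had 16 of the 19 genes found in the files tested, 9 below 0 and 7 above. Il17ra, the common chain of the IL-17 receptors, had -0.27 (edgeR, adjusted p = 0.278) and Il17re, the receptor chain for IL-17C, had -0.28 (adjusted p = 0.329). Il1f8, an older symbol for the IL-36 beta gene, had 0.24 (edgeR, adjusted p = 0.229), and Il1rl2, the IL-36 receptor, had 0.19 (adjusted p = 0.287). Il17a and Il17f were counted 12 and 15 times in all and were not tested. Il1b had 13.3, 28.5 and 82.5 normalized CPM in Experimental libraries (lowest, median and highest), against 45.5, 21.9, 64.1 and 53.4 in Littermate replicates 1 to 4, with its highest value in Experimental 6.

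Regulators of transcription and mRNA decay had 15 of 16 members tested, 13 below 0 and 2 above, at a median of -0.12. Bcl3, a nuclear partner of NF-kB, had -0.38 (edgeR, adjusted p = 0.159), Zc3h12a, the RNase Regnase-1, had -0.31 (adjusted p = 0.216), Zfp36 had -0.29 (adjusted p = 0.297) and Arid5a had -0.16 (adjusted p = 0.559). The signalling genes below the receptors had 15 of 15 tested, 11 below 0 and 4 above. Among them Prex1, a Rac activator of neutrophils, had -0.43 (edgeR, adjusted p = 0.302), Grk6, a receptor kinase, -0.15 (adjusted p = 0.464) and Socs3, the inhibitor of G-CSF receptor signalling, -0.19 (adjusted p = 0.609).

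Other attractants of neutrophils and their receptors had 12 of 12 tested, 10 below 0 and 2 above, at a median of -0.24. Alox5 and Lta4h, enzymes of leukotriene B4 synthesis, had -0.31 (edgeR, adjusted p = 0.281) and 0.12 (adjusted p = 0.538), and C5ar1 and C5ar2, the receptors of complement C5a, had -0.30 (adjusted p = 0.577) and -0.50 (adjusted p = 0.409).

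Further neutrophil genes were spread to both sides of 0. Of 47 found in the files 38 were tested, 22 below 0 and 16 above, at a median log2 fold change of -0.06, and 1 more listed symbol, Lilr4b, matched no row. None passed in edgeR on all 10 libraries, in DESeq2 or in limma voom with or without weights. At an unadjusted p under 0.05, 1 was lower (Cd33) and 3 were higher (the stefin genes Stfa1, BC100530 and Stfa3), where 8.1% of all tested genes were lower and 3.65% higher. The list also held Asprv1, its highest gene, at means of 2188 normalized CPM in Experimental and 1940 in Littermate libraries. The spread and the median depend on such content and are not read as a measure of neutrophils. Granule genes had 7 of 13 tested, 3 below 0 and 4 above: Mmp9, a gelatinase, had -0.52 (edgeR, adjusted p = 0.784), Lcn2 -0.11 (adjusted p = 0.859), Cd177 -0.26 (adjusted p = 0.894) and Hp, haptoglobin, 0.15 (adjusted p = 0.887). Mpo, Elane, Camp, Ltf and Ngp, genes of the primary and secondary granules made in bone marrow, had 57, 9, 30, 93 and 62 reads in all and were not tested.

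Among 31 tested mature neutrophil transcripts, Cd33, a lectin of myeloid cells, had -0.51 (edgeR, adjusted p = 0.233). The stefin genes Stfa1, BC100530 and Stfa3 had 0.40, 0.34 and 0.46 (edgeR, adjusted p = 0.233, 0.249 and 0.328). Stefin genes are also expressed in keratinocytes and are near-identical copies whose reads can be split between them. Stfa2l1, of the same family, had a log2 fold change of -1.005, and ran from 0.334 to 3.03 normalized CPM in Experimental libraries, with Experimental 6 the highest, and from 1.21 to 2.49 in Littermate libraries.

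Without both Experimental 6 and Littermate 2, 7 pathway genes passed as lower (Cxcr4, Csf2rb, Csf2rb2, Il17ra, Socs3, Fpr1 and C5ar1), where 2.73% of all genes did. Of the neutrophil genes 3 then passed as lower (Clec4d, Stfa2l1 and Cd33) and 2 as higher (BC100530 and Stfa1), where 0.605% of all genes passed as higher. Without Experimental 6 alone 1 of these neutrophil genes passed, Cd33 as lower, and without Littermate 2 alone 1 passed, BC100530 as higher, while 0 pathway genes passed in either.

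**Figure D5:**
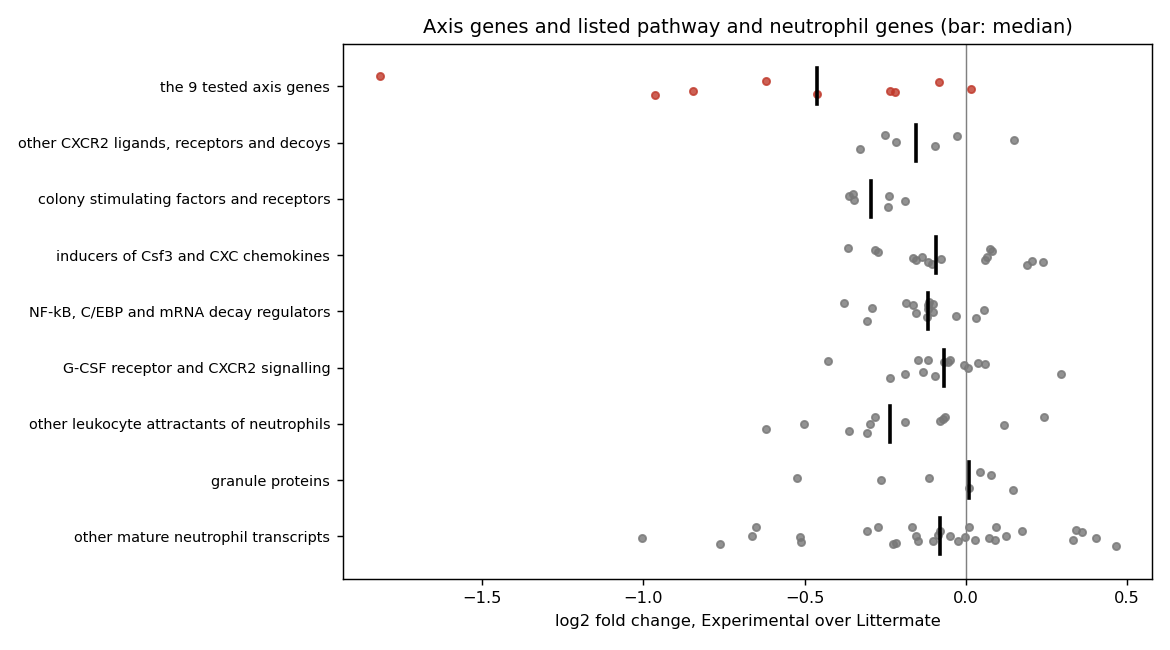
Log2 fold change, Experimental over Littermate, of each tested gene (points) in the axis and in the listed pathway and neutrophil groups, with the median of each group as a bar. The median of the 9 tested axis genes is -0.46, that of the colony stimulating factors and receptors -0.29, and that of the other mature neutrophil transcripts -0.08.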

How the data were processed

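RNA of whole ear skin was depleted of ribosomal RNA, primed with random hexamers and sequenced as single reads of 50 bases, per the labels' protocols. The tools listed are featureCounts 1.4.5, Subread and STAR 2.0.4b, on mm10, per the submitters' processing notes. No source used here gives the strand setting or the treatment of reads with several matches. Per the file headers, each deposited file holds raw read counts by gene beside CPM and RPKM. The deposited CPM equals the count divided by the library total, per 1e6. The deposited RPKM is the CPM over the length of the gene in kilobases.

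Counts of all 10 libraries were tested with edgeR 4.0.16 (filterByExpr by group, TMM, robust quasi-likelihood test, two-sided, group as the only term), with Benjamini-Hochberg adjustment over the 16830 genes kept and a threshold of 0.05. RPKM served to order levels. Normalized CPM uses TMM factors from 0.984 to 1.02. A floor of 3 counts was worth 0.0715 to 0.260 CPM. Intervals cover the spread of these libraries and counting error, while the floor is a fixed count. Alternatives were other size factors and filters, DESeq2 1.42.0, limma 3.58.1 voom with and without weights, the replicate number as a block, the level of Y-linked genes as a covariate, and each library left out. The removal of 2 libraries together and counts thinned to 11520348 reads were chosen after seeing the data. Steps were tested on simulated data.

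The members, lists and tests were chosen with earlier results of these data known. Named genes are the 10 axis genes, Il4ra and Jak1, the 4 genes of each list with the lowest p, those that passed, and the 5 genes most like Csf3 and Csf3r. Other genes named were chosen after their values were seen. The Gm and Rik gene models were left out of the likeness search. A gene that the rule takes is not reported here.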

Additional observations from a re-analysis of the deposited data

Results flagged for a closer look

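In 4 of the 20 groups of libraries examined (10 genes in 2 groups), the highest library stood apart from the others by Dixon's criterion, and in all 4 it was Experimental 6. Chance gives about 1 such group in 20. The values were 57.1 normalized CPM for Cxcl2, where the next Experimental library had 20.3. They were 58.2 for Cxcl5, where the next had 11.3. They were 43.1 for Csf3r, where the next had 17.4, and 19.1 for Clec4e, where the next had 8.74. The genes share a library, so the 4 are not independent.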

How the results depend on the processing

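Of the 9 tested axis genes 0 passed on all libraries; 1 passed with DESeq2, 1 with limma voom with sample weights, 1 with the replicate block and 3 without both Littermate 2 and Experimental 6, and leaving out 1 library gave 0 to 1 (1 without Littermate 2, 1 without Experimental 6). Over all genes 3 passed; the count was 78 with no filter on low counts, 232 with DESeq2, 60 with limma voom with sample weights, 563 without both libraries, and 3 to 343 with 1 library left out (343 without Littermate 2, 28 without Experimental 6, 8 without Littermate 3). The cause was not tested. The 6 linked pairs became 0 with Spearman's rho, 10 without centring on group means, 0 in Experimental libraries alone, and 0 to 10 with 1 library left out.

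The replicate numbers showed no sign of pairing the libraries. Same-numbered libraries had correlations of 0.033, -0.020, 0.091 and -0.021, and 1 of the 4 numbers was closest to its own. These values cannot exclude a shared litter or batch, which the sources used here do not give. With the replicate block 67 genes and 1 axis gene passed (Csf3r, log2 fold change -1.23, adjusted p = 0.0428 in edgeR).

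Some fold changes turned in sign. Clec4e was -0.32 with limma voom, -0.42 with sample weights, -0.63 with the replicate block, -0.058 with the Y-linked covariate, -0.58 without both libraries, and -0.46 to 0.21 with 1 library left out. Lcn2 was 0.0085 with sample weights, 0.41 with the Y-linked covariate and -0.28 to 0.18 with 1 library left out. Cxcl12 was 0.18 with the Y-linked covariate. Hp was -0.019 without both libraries and -0.048 to 0.46 with 1 library left out. With 1 library left out, Cxcl1 ran from -0.38 to 0.033, Cxcl5 from -1.45 to 0.021, Cxcr2 from -0.18 to 0.068 and Ackr2 from -0.17 to 0.032. Cxcl5 had no adjusted p in DESeq2. Ly6g was the least counted axis gene, at 9 reads in all, with 0 in Experimental 2 and Experimental 3, the libraries with the highest totals.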

Other observations

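Csf2, which encodes GM-CSF, a growth factor of granulocytes and macrophages, was too low to be tested, at 52 reads in all. It was counted 1, 8, 13, 2, 3 and 24 times in Experimental replicates 1 to 6 and 0, 0, 0 and 1 times in Littermate replicates 1 to 4. Since library totals differ, the levels are also given: they ran from 0.0560 to 1.396 normalized CPM in Experimental libraries, highest in Experimental 6, and from 0 to 0.0779 in Littermate libraries. The groups overlapped, with Experimental 1 below Littermate 4. The gene was picked after its counts were seen, and the difference was not tested.

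Trem1, a receptor that amplifies inflammation in neutrophils and monocytes, had 1.65, 3.96 and 12.3 normalized CPM in Experimental libraries (lowest, median and highest), against 9.31, 3.005, 12.9 and 9.58 in Littermate replicates 1 to 4. Its highest Experimental library was Experimental 6 and its lowest Littermate library was Littermate 2.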
